A study of Mus musculus with 5 samples.

Results

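Integrins, laminins and syndecans were followed as 40 genes of 19084 measured on 5 mouse microarrays. They were the genes whose symbol in the array's annotation was that of an integrin alpha subunit (18 genes), an integrin beta subunit (8), a laminin chain (10) or a syndecan (4), carried by 46 probes. The rule used names and no measured value, but it was chosen with earlier results of these data known. The MEF group was 1 array of embryonic fibroblasts given a mock vector, prepared from mouse embryos at 13.5 days post coitus without head and viscera. The iLC group was 2 arrays of such fibroblasts transduced with Dmrt1, Gata4 and Nr5a1 and labelled as induced Leydig-like cells. Per the labels' protocols, they met lentivirus for 12 hours and were then kept with IGF (50 ng/ml) plus the growth factor PDGFAA (10 ng/ml). The Leydig group was 2 arrays of androgen-producing testis cells isolated from mice aged 56 days. One protocol text is given for all samples, so whether the mock cells had the same medium, how long cells were cultured and whether embryos or mice were pooled was not stated.

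Integrins are receptors of an alpha and a beta subunit that join the matrix outside the cell to the actin skeleton inside. Laminins are trimers of an alpha, a beta and a gamma chain that build basement membranes and are ligands of several integrins. Syndecans are membrane proteins with heparan sulfate chains that bind matrix proteins and growth factors and act beside integrins at adhesion sites. Fibroblasts in culture attach through fibronectin and collagen receptors. In the testis, laminins lie in the wall of the seminiferous tubule.

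The promoter windows of Itga9, Itga11, Itga8 and Sdc1 are shown because these members carry large called differences in the results below. Each is a RefSeq window of GRCm38.p6 from 250 bases before to 50 bases after an annotated start. RefSeq windows were matched to 26 of the 40 members, 29 windows in all. Capitals mark matches, on either strand, to 4 short motifs, and no matches overlapped in these windows.
Itga9 (chr9:118711442-118711741, plus strand): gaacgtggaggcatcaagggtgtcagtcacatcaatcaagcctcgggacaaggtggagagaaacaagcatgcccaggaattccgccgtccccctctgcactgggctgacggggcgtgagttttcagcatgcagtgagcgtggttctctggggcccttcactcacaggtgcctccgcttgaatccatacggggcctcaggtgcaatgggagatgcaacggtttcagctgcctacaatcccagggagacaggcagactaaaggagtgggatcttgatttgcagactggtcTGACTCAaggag
Itga11 (chr9:62677605-62677904, plus strand): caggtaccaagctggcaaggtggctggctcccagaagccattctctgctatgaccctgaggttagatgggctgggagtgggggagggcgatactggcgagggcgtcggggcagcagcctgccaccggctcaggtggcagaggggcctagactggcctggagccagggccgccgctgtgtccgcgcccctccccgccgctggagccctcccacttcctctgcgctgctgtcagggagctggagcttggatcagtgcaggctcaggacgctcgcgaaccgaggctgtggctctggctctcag
Itga8 (chr2:12301895-12302194, minus strand): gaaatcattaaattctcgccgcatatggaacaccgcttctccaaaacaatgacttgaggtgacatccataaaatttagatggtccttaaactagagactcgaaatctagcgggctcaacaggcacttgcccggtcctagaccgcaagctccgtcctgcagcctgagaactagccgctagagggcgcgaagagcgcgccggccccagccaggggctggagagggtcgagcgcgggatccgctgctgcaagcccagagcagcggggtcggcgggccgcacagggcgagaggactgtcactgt
Sdc1 (chr12:8771146-8771445, plus strand): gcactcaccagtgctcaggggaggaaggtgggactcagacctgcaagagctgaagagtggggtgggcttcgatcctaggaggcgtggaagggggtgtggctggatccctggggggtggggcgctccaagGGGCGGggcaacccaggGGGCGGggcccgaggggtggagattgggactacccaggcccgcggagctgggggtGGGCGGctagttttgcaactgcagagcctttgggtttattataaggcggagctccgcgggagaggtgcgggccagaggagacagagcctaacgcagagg
The capitals in the Itga9 window are an AP-1 site, TGACTCA, which was in 2 of the 29 member windows (Itga9 and Itgax) and in 5.2% of all 32851 windows of the table. The capitals in the Sdc1 window are 3 GC boxes, GGGCGG, which were in 15 member windows and 35.7% of all. The half-site of Nr5a1, AAGGTCA, was in 0 member windows and 4.72% of all. The GATA site searched was AGATAA, found in 1 member window (Itgax) and 11.2% of all. The windows of Itga11 and Itga8 held none of the 4. A match is a description of letters, and no binding was measured.

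Median probe intensities lay between 1111 and 1230 (arbitrary units) on the 5 arrays, whose number limits every precision. Separate cultures or animals are not stated for paired arrays, so p-values measure only the spread between these arrays. Nr5a1 read 1265 in MEF and 1509 and 1158 in iLC, Dmrt1 396.6 in MEF against 333.2 and 427.2 in iLC, and Gata4 6773 against 4127 and 3149.6. Whether these probes lie within the delivered sequences is not given, so they do not check the labels. In Leydig cells the steroidogenic markers Nr5a1 (68030.1 and 44721), Cyp17a1 (40614 and 197728) and Hsd3b1 (218338 and 95740.3) were far above MEF, while Cyp11a1 (509.8 and 450.6) was not. Star, which brings cholesterol into mitochondria, read 695 (MEF), 56878 and 73892 (iLC) and 1368 and 19703 (Leydig), with no call. Both iLC readings were far above MEF. The fit pools the spread of the iLC and Leydig pairs for each gene, and the Leydig readings of Star were far apart. Hsd3b1 read 27160.1 and 34513 in iLC against 829.9 in MEF, a log2 difference of 5.18 and the 1 of 7 Leydig markers that passed limma's test there (adjusted p = 0.033). Of all genes, 0.278% were called higher in iLC than in MEF. Of the 7 differences there, 5 were above 0 and 2 below, with a median of 0.25. Cyp17a1 was lower in iLC than in Leydig cells, at -6.76 to -4.48 over the arrays left out. Hsd3b1 no longer passed in 6 of 13 alternatives, among them the removal of any single iLC or Leydig array (5.01 to 5.35). With an array removed, 0 of all genes were called between iLC and MEF. Leydig arrays 1 and 2 carried germ cell RNA unequally, with 10 germ cell markers summing to 28630 and 383521, against 8815 to 10775 elsewhere. Dazl read 3150.1 and 2388 in Leydig cells against 329.1 or less elsewhere, and Ddx4 2668 to 4360.3 on all arrays. Neither showed the gap in the sums, but Prm1, Tnp1 and Tnp2 did. Their iLC to Leydig differences were -9.69, -8.23 and -8.05 without Leydig replicate 1 and -5.19, -4.04 and -3.63 without Leydig replicate 2. The 9 Sertoli markers summed to 344592 and 378661 in Leydig cells against 30852 to 91911 elsewhere, nearly all of it Clu, with Sox9 (450.3 and 1119.9) and Amh (89.2 and 216.1) below their MEF readings (1306 and 228.9). In bulk RNA, fewer cells of a type and less RNA per cell cannot be told apart.

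In the main fit, all calls among the 40 genes set Leydig cells against another group, where calls among all genes were also far more frequent. A call is an adjusted p under 0.05 in limma's moderated test on log2(intensity + 16), adjusted over all 19084 genes. Between iLC and MEF, 0 of 40 members were called in either direction, against 0.561% of all genes (0.278% higher and 0.283% lower), and 9 members had an unadjusted p under 0.05, or 22.5% against 15.7% of all genes. Between iLC and Leydig cells 11 members were called, 27.5% against 11.4% of all genes, and 23 had an unadjusted p under 0.05, or 57.5% against 26.9%. Of the 11 calls, 7 were higher in iLC (17.5%, against 5.72% of all genes) and 4 lower (10%, against 5.65%). Between Leydig cells and MEF 11 members were called too, 27.5% against 7.3% of all genes, and 21 had an unadjusted p under 0.05, or 52.5% against 19.8%. Of these calls, 3 were higher in Leydig cells (7.5%, against 3.34% of all genes) and 8 lower (20%, against 3.97%). The comparisons share arrays, and 7 members were called both between iLC and Leydig cells and between Leydig cells and MEF. In all, 15 members had a call and 25 had none. Both iLC readings were above both Leydig readings for 19 members, against 28.9% of all genes, and below for 11, against 29% of all genes.

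The members' median log2 difference was -0.51 between iLC and MEF, 0.13 between iLC and Leydig cells and -0.87 between Leydig cells and MEF, where all genes had medians of -0.11, -0.03 and -0.10. Quantile normalization moved the iLC to MEF median of all genes by 0.16, and relative to all genes the members' median was -0.40 without it and -0.41 with it. The fit had 2 residual degrees of freedom, of which leaving out an array removed 1. The iLC to Leydig calls then fell to 3 to 5 higher and 2 to 3 lower. Without Leydig replicate 1, 3 members were called lower in Leydig cells than in MEF, and without Leydig replicate 2 the calls were 0 lower and 1 higher. All genes fell likewise, from 637 higher and 757 lower to 79 and 74 without Leydig replicate 2.

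**Figure D1:**
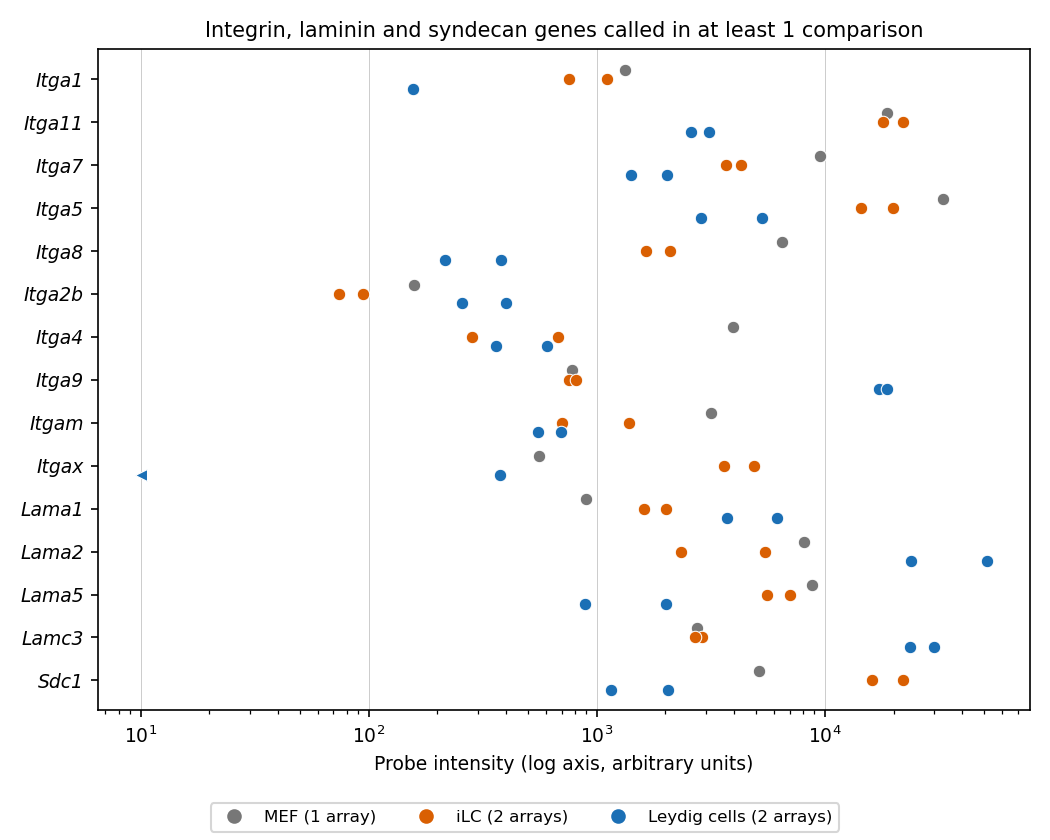
Probe intensity (log axis, arbitrary units) of the 15 members with a call, 1 point per array and 1 colour per group; the triangle stands for the Itgax reading of Leydig replicate 2, which lay below 0. Itga9 and Lamc3 read far higher in Leydig cells than in the other groups, and Itga11, Itga5 and Itga8 far lower.

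Itga9 separated Leydig cells from both other groups. It encodes the alpha subunit of a receptor for tenascin-C, VCAM-1 and osteopontin. Itga9 read 780.9 (MEF), 757.7 and 810.1 (iLC) and 17225 and 18800.5 (Leydig). The MEF reading lay between those of iLC, and both Leydig readings were far above. Leydig cells exceeded MEF by a log2 difference of 4.50 ± 0.37 (SE, adjusted p = 0.00341), and iLC lay below Leydig cells at -4.49 ± 0.30 (adjusted p = 0.0011). Both calls held under every alternative run. Its relative Itga4, a receptor subunit for VCAM-1 and fibronectin best known from leukocytes, had another pattern. Itga4 read 3958 (MEF), 284.8 and 674.9 (iLC) and 360 and 603.6 (Leydig). Only the MEF reading was high, and iLC and Leydig readings overlapped. Leydig cells were lower than MEF, at -3.04 ± 0.61 (adjusted p = 0.0357), a call lost without either Leydig array (-3.40 to -2.68, highest adjusted p = 0.15), with an added constant of 1 and with aligned low ends. The iLC to MEF difference of -3.12 ± 0.61 did not pass (adjusted p = 0.0902), but passed with median centring (adjusted p = 0.029) and quantile normalization (adjusted p = 0.0394).

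Of the 4 collagen-binding alpha subunits, 2 were higher in iLC and in MEF than in Leydig cells. Itga11, the fibrillar collagen receptor subunit of fibroblasts, read 18642 (MEF), 17935 and 22055 (iLC) and 3104 and 2591 (Leydig). The iLC readings lay on both sides of MEF, and the Leydig readings were far below. The log2 difference was 2.80 ± 0.32 (SE, adjusted p = 0.00408) between iLC and Leydig cells and -2.71 ± 0.39 (adjusted p = 0.0135) between Leydig cells and MEF. Another probe of Itga11 gave 2.60 and -1.57. The first call held under every alternative run, and the second was lost without either Leydig array (-2.84 to -2.58, highest adjusted p = 0.082). Itga1, a receptor subunit for basement membrane and fibrillar collagens, read 1324 (MEF), 1107 and 757.5 (iLC) and 156.9 and 156.4 (Leydig). Both Leydig readings were under the 25th percentile of their own array, where unequal low ends of the arrays weigh most. Itga1 was higher in iLC than in Leydig cells, at 2.43 ± 0.33 (adjusted p = 0.00776), and lower in Leydig cells than in MEF, at -2.96 ± 0.41 (adjusted p = 0.0122). Its other probe, at 68.7 to 158.4 over the arrays, gave -0.17 and -0.71. The first call was lost without iLC replicate 1 or either Leydig array (2.16 to 2.70, highest adjusted p = 0.0717) and with the mean of both probes (1.13), and the second without either Leydig array (highest adjusted p = 0.08). Itga10, a collagen receptor subunit of cartilage, read 280 to 601 and Itga2, a collagen and laminin receptor subunit, 47.2 to 116.5, without a call.

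The fibronectin receptor subunits Itga5 and Itga8 went the same way. Itga5, the alpha subunit of the classical fibronectin receptor, read 32932 (MEF), 14328 and 19849 (iLC) and 2859 and 5286 (Leydig). The groups did not overlap, with iLC between the others. The log2 difference was 2.11 ± 0.41 (SE, adjusted p = 0.0249) between iLC and Leydig cells and -3.08 ± 0.50 (adjusted p = 0.0197) between Leydig cells and MEF. The first call was lost without any single iLC or Leydig array (1.67 to 2.55, highest adjusted p = 0.117) and with aligned low ends, and the second without either Leydig array (-3.52 to -2.64, highest adjusted p = 0.0684). Itga8, a mesenchymal subunit that binds fibronectin, tenascin-C and nephronectin, read 6495 (MEF), 1648 and 2086 (iLC) and 380.6 and 216.9 (Leydig). These readings stepped down from MEF to iLC to Leydig cells without overlap. Itga8 was higher in iLC than in Leydig cells, at 2.62 ± 0.38 (adjusted p = 0.00955), and lower in Leydig cells than in MEF, at -4.42 ± 0.47 (adjusted p = 0.00578). The iLC to MEF difference of -1.80 ± 0.47 did not pass (adjusted p = 0.156). The iLC to Leydig call was lost without iLC replicate 2 or Leydig replicate 2 (2.24 to 3.01, highest adjusted p = 0.0694), and the Leydig to MEF call without Leydig replicate 2 (adjusted p = 0.052). Itgav, the vitronectin receptor subunit, read 73837 (MEF), 20569.6 and 28113 (iLC) and 29180.1 and 46604 (Leydig), and had no call (-1.62 between iLC and MEF, adjusted p = 0.183).

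Of the 3 laminin-binding alpha subunits, 1 had a call. Itga7, the laminin receptor subunit of muscle, read 9474 (MEF), 3681 and 4278 (iLC) and 1412 and 2029.5 (Leydig), again with iLC between the others. It was lower in Leydig cells than in MEF, at -2.47 ± 0.41 (SE, adjusted p = 0.0209), a call lost without either Leydig array (-2.73 to -2.21, highest adjusted p = 0.0761). Its iLC to Leydig difference of 1.22 ± 0.34 did not pass (adjusted p = 0.0724). Itga6, a laminin receptor subunit of epithelia, read 5387 (MEF), 3505 and 4352 (iLC) and 1298 and 1778 (Leydig). The Leydig readings were the lowest, and the differences did not pass, at 1.35 between iLC and Leydig cells (adjusted p = 0.0535) and -1.82 between Leydig cells and MEF (adjusted p = 0.0539). They passed under 6 and 5 of the alternatives. Itga3, a laminin receptor subunit often paired with Itgb1, read 10083 (MEF), 3502 and 6214 (iLC) and 4177 and 7904 (Leydig), where iLC and Leydig readings overlapped.

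No beta subunit was called by limma, 0 of 8 in each comparison. Of all genes, 0.561% were called between iLC and MEF, 11.4% between iLC and Leydig cells and 7.3% between Leydig cells and MEF. With 8 genes, 0 calls cannot be told apart from these shares. In that order, 1, 3 and 3 of the 8 had an unadjusted p under 0.05, against 15.7%, 26.9% and 19.8% of all genes. Itgb1, the partner of most alpha subunits above, read 256294 (MEF), 125325 and 174535 (iLC) and 87172 and 78663 (Leydig). The groups did not overlap, and Leydig cells were lowest. The differences were -1.63 ± 0.40 (SE, adjusted p = 0.0696) between Leydig cells and MEF and 0.84 ± 0.33 (adjusted p = 0.17) between iLC and Leydig cells, and another probe gave -1.68 and 0.67. Itgb5, which pairs with Itgav to bind vitronectin, read 82621 (MEF), 67779 and 45779 (iLC) and 22158 and 24964 (Leydig). Leydig cells were again lowest, at -1.81 against MEF (adjusted p = 0.0565), and iLC stood at 1.24 against them (adjusted p = 0.0713). With every probe tested on its own, the other Itgb5 probes gave 1.78 (adjusted p = 0.0356) and 1.88 (adjusted p = 0.0162) between iLC and Leydig cells, and the latter gave -1.84 (adjusted p = 0.0461) between Leydig cells and MEF. The Leydig to MEF difference also passed under 6 of 13 alternatives for Itgb5 and under 2 for Itgb1. Itgb3, a partner of Itgav and of Itga2b, read 8961 to 27070.5.

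Itgb4, which pairs with Itga6 in the hemidesmosomes of epithelia, read 999.6 (MEF), 1882 and 8705 (iLC) and 826.8 and 1112 (Leydig). The iLC arrays were far apart, and the iLC to Leydig difference of 2.06 ± 0.70 (SE) did not pass (adjusted p = 0.123), while it did without iLC replicate 1 (3.16, adjusted p = 0.0249). The epithelial cadherin Cdh1 was apart in the same direction, at 3222 and 11934 in iLC, and Epcam read 501.8 to 859.6 on all arrays. The 10 epithelial markers summed to 23771 (MEF), 17899 and 30518 (iLC) and 14316 and 12267 (Leydig). Of the 10, 1 was lower in iLC than in MEF (Krt19), where 0.561% of all genes were called. Cldn4 alone was higher in iLC than in Leydig cells, and 1 of 10 cannot be told apart from the 11.4% of all genes. Krt19 and Krt8 were lower in Leydig cells than in MEF, 2 of 10, where 7.3% of all genes were called. The Leydig to MEF call of Krt19 held under every alternative run. Its iLC to MEF call was lost with an added constant of 1 and with aligned low ends. It was also lost without any single iLC or Leydig array, where 0 of all genes were called between iLC and MEF. The Krt19 difference was then -3.44 to -3.27. The call of Cldn4 was lost without Leydig replicate 1, Leydig replicate 2 or iLC replicate 2 (1.70 to 2.83 over the arrays left out). Krt8, at -42.8 to 67.5 under the 25th percentile on all arrays, lost its call in 9 of 12 alternatives, with log2 differences from -4.68 to 0. The part of epithelial cells in the Itgb4 readings was not tested. Itgb6 (41.7 to 168.2) and Itgb8 (60.5 to 131.8), partners of Itgav in activating TGF-beta, were under the 25th percentile on each of the 5 arrays, as was Itga2.

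**Figure D2:**
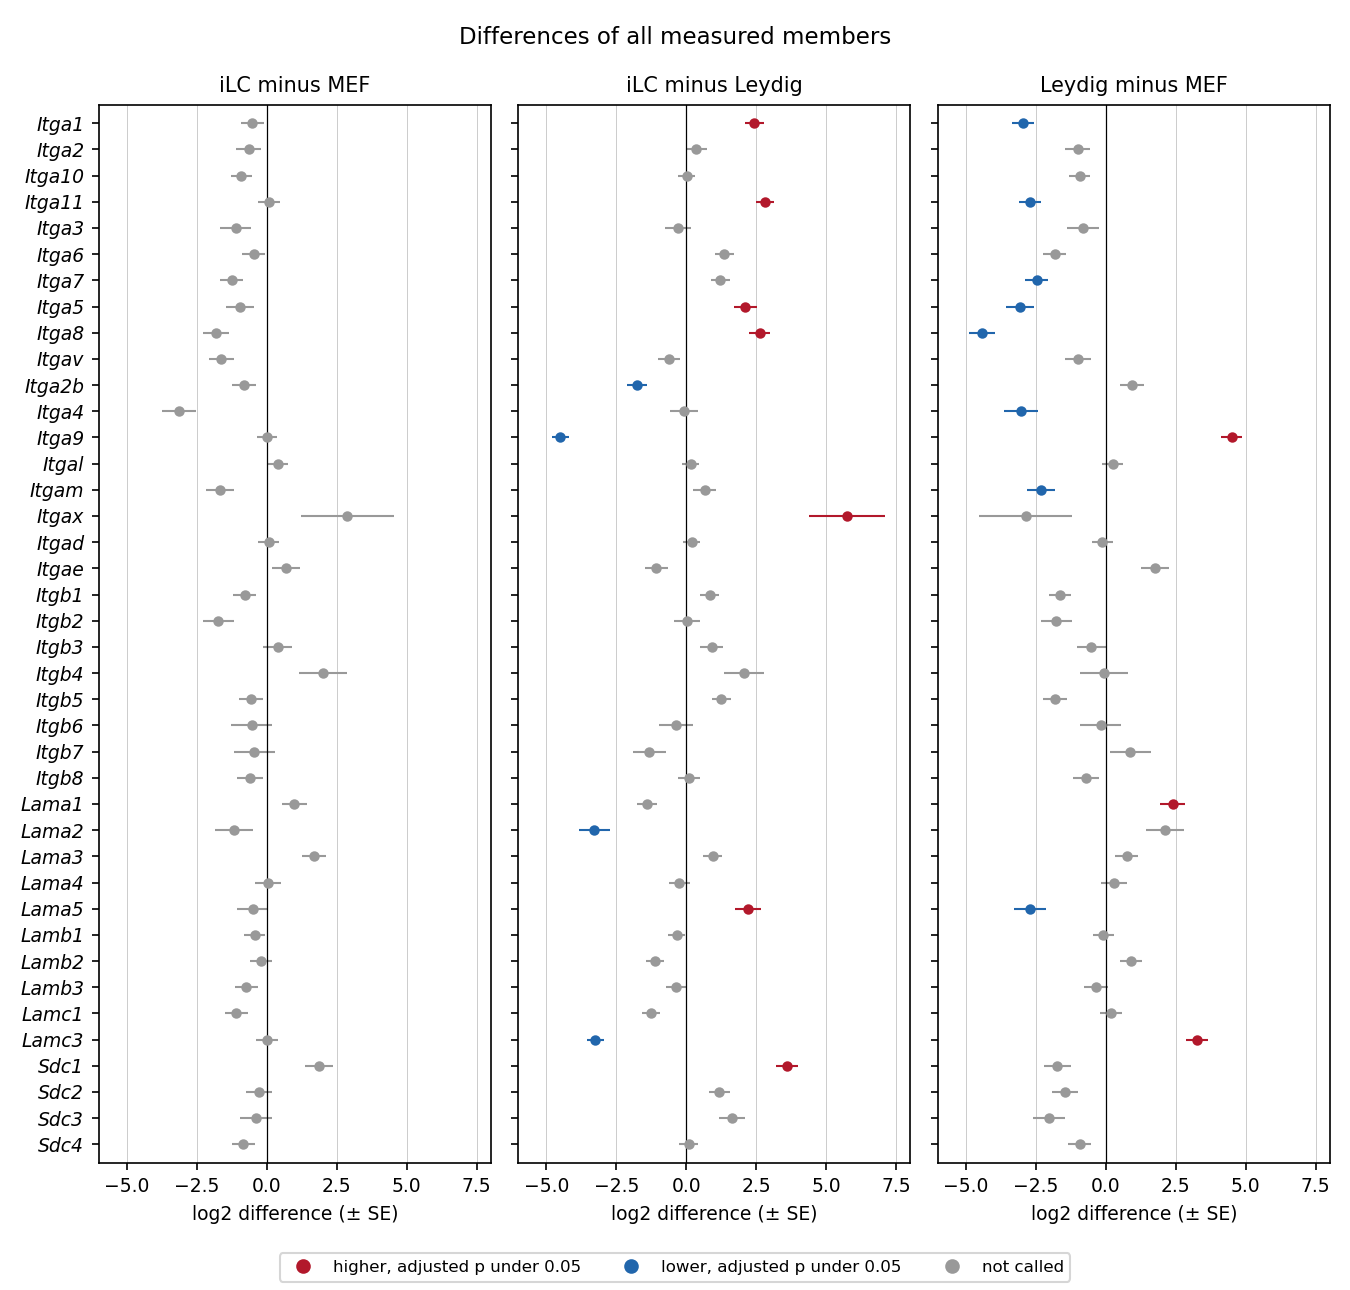
Log2 difference (points) with its standard error (bars) of all 40 members in the 3 comparisons, from alpha subunits at the top to syndecans at the bottom; red and blue mark calls at an adjusted p under 0.05. The left panel holds 0 calls, the middle one 7 higher and 4 lower, and the right one 3 higher and 8 lower.

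Blood-cell integrins were read beside markers of the cells that carry them. Over all genes, 0.561% were called between iLC and MEF, 11.4% between iLC and Leydig cells and 7.3% between Leydig cells and MEF. An unadjusted p under 0.05 between iLC and MEF was held by 15.7% of all genes. Itgam, the alpha subunit of the macrophage and neutrophil complement receptor, read 3163 (MEF), 707 and 1379.7 (iLC) and 696.5 and 554 (Leydig). MEF was highest. Itgam was lower in Leydig cells than in MEF, at -2.32 ± 0.50 (SE, adjusted p = 0.0472), a call lost without either Leydig array (-2.48 to -2.16, highest adjusted p = 0.198), with an added constant of 1 and with aligned low ends. Itgb2, the beta subunit shared by leukocyte integrins, read 9385 (MEF), 1964 and 4032 (iLC) and 2181 and 3475 (Leydig). MEF was highest here too, without a call (-1.76 between Leydig cells and MEF, adjusted p = 0.141). The 13 leukocyte markers measured summed to 252878 (MEF), 59225 and 101383 (iLC) and 60082 and 79075 (Leydig). Between Leydig cells and MEF 5 of the 13 were lower and 0 higher, between iLC and Leydig cells 1 was higher (Csf1r) and 1 lower (Coro1a), and between iLC and MEF 0 were called by limma, with 8 at an unadjusted p under 0.05 and 12 of 13 differences below 0. The Csf1r call against iLC was lost without Leydig replicate 1, Leydig replicate 2 or iLC replicate 2 (adjusted p up to 0.0596), and the Coro1a call without any single iLC or Leydig array (highest adjusted p = 0.213), with an added constant of 1 and with aligned low ends. Of the Leydig to MEF calls, that of Lyz1 held under every alternative run, and those of Adgre1, Csf1r and Tyrobp were lost without either Leydig array (highest adjusted p = 0.197, 0.0758 and 0.142). Adgre1, a macrophage marker, read 6572 (MEF), 944.6 and 2305 (iLC) and 1052 and 721.4 (Leydig). Csf1r, the macrophage growth factor receptor, read 12039 (MEF), 8129.5 and 10525 (iLC) and 1662 and 2126 (Leydig). Ptprc, which encodes CD45 of all leukocytes, read 3557 (MEF), 2271 and 3059 (iLC) and 3077 and 4324 (Leydig). Adgre1 was highest in MEF and Csf1r lowest in Leydig cells, while the MEF reading of Ptprc lay between those of Leydig cells. The part of leukocytes in the readings of Itgam, Itgb2 and Itga4 was not tested.

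Itgax, which encodes CD11c of dendritic cells and macrophages, went the other way. Itgax read 560.1 (MEF), 4912 and 3621 (iLC) and 377.5 and -26.9 (Leydig). Both iLC readings were high and the other 3 low. The log2 difference between iLC and Leydig cells was 5.74 ± 1.35 (SE, adjusted p = 0.0457) and that between iLC and MEF 2.88 ± 1.65 (adjusted p = 0.465). The reading below 0 was set to 0, and the difference from Leydig cells was 3.43 without Leydig replicate 2, which holds it, and 8.05 without Leydig replicate 1. The call was lost without either iLC array (highest adjusted p = 0.177), with an added constant of 1, with aligned low ends and with trend and robust moderation. The leukocyte subunits Itgal (9080 to 12075) and Itgad (520.1 to 647) had no call. Itgae, a subunit of mucosal T cells that binds E-cadherin (587.7 to 2802), and its partner Itgb7 (377.1 to 2155) had none either.

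Itga2b, the alpha subunit of the platelet fibrinogen receptor, read 158.4 (MEF), 74.3 and 93.9 (iLC) and 256.4 and 399.3 (Leydig). The Leydig readings were the highest, and 4 of the 5 readings were under the 25th percentile of their array. It was lower in iLC than in Leydig cells, at -1.76 ± 0.35 (SE, adjusted p = 0.0278), a call lost without any single iLC or Leydig array (-2.06 to -1.45, highest adjusted p = 0.141) and with aligned low ends. The 5 platelet markers measured summed to 16788 (MEF), 24153 and 52440 (iLC) and 3153 and 4300 (Leydig), lowest where Itga2b was highest. Of these, 2 were higher in iLC than in Leydig cells, the platelet chemokines Ppbp (5.20, adjusted p = 0.00288) and Pf4 (3.65, adjusted p = 0.00708), and the same 2 were lower in Leydig cells than in MEF. The first of these calls was lost without Leydig replicate 2 (5.06, adjusted p = 0.0543) and the second without Leydig replicate 1 (3.17, adjusted p = 0.0551), and both Leydig to MEF calls without either Leydig array (highest adjusted p = 0.212 and 0.141).

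**Figure D3:**
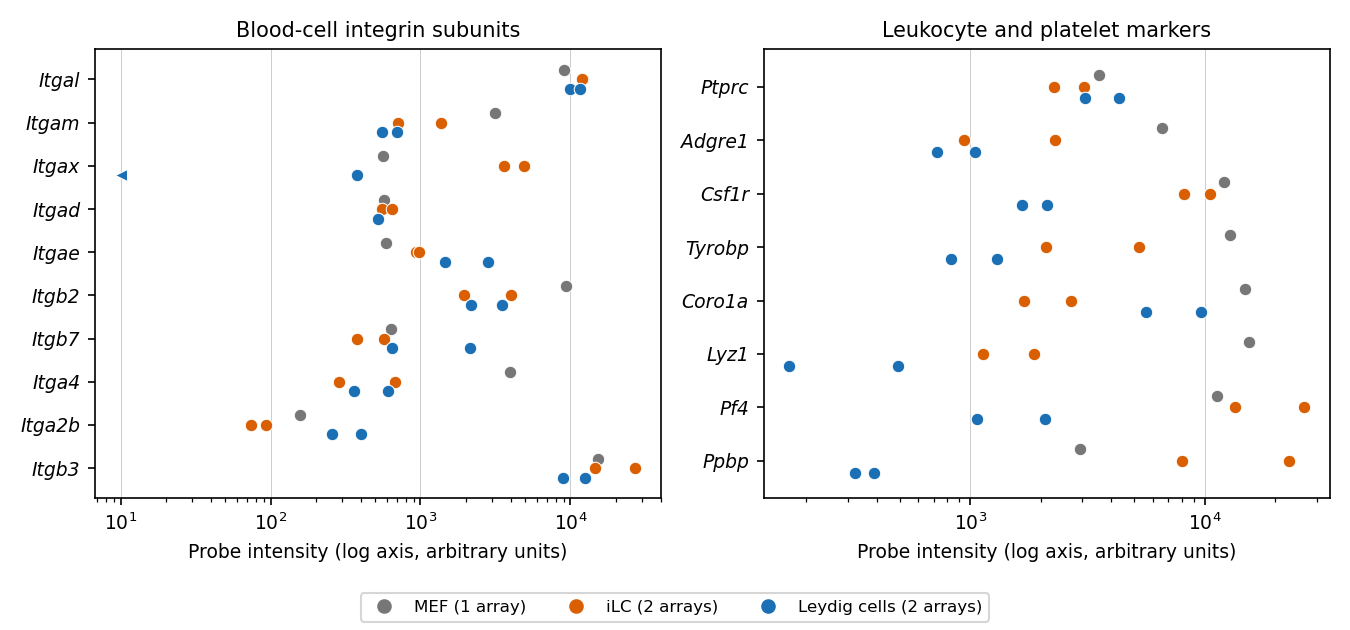
Probe intensity (log axis, arbitrary units) of 10 integrin subunits of blood cells (left) and 8 leukocyte and platelet markers (right), 1 point per array; the triangle marks the Itgax reading below 0. Itgam, Itgb2 and Itga4 were highest in MEF, as were Adgre1, Tyrobp and Lyz1, while Itgax was high in both iLC arrays. The MEF reading of Ptprc lay between those of Leydig cells, and Pf4 and Ppbp were lower in Leydig cells than in both other groups.

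Laminin chains differed among themselves. Lamc3, a gamma chain less widely used than Lamc1, read 2758 (MEF), 2897 and 2689 (iLC) and 30020.2 and 23688 (Leydig). MEF lay between the iLC readings, and Leydig cells were far above, as for Itga9. The log2 difference was -3.25 ± 0.31 (SE, adjusted p = 0.00238) between iLC and Leydig cells and 3.27 ± 0.38 (adjusted p = 0.00775) between Leydig cells and MEF. The first call held under every alternative run, and the second was lost without Leydig replicate 2 (3.44, adjusted p = 0.0562). Lama2, the alpha chain of muscle and nerve laminins, read 8102 (MEF), 5452 and 2349 (iLC) and 51600.3 and 23936 (Leydig). Leydig cells were highest and iLC lowest. It was lower in iLC than in Leydig cells, at -3.29 ± 0.55 (adjusted p = 0.0154), a call lost without iLC replicate 2 or either Leydig array (-3.89 to -2.68, highest adjusted p = 0.0923). The Leydig to MEF difference of Lama2, 2.11 ± 0.68, did not pass (adjusted p = 0.143). Lama1, the alpha chain of early embryonic basement membranes, read 897.4 (MEF), 2011 and 1603 (iLC) and 6136 and 3704 (Leydig). These readings stepped up from MEF to iLC to Leydig cells without overlap. Lama1 was higher in Leydig cells than in MEF, at 2.39 ± 0.46 (adjusted p = 0.0311), while iLC did not pass against MEF (0.99, adjusted p = 0.364) or against Leydig cells (-1.40, adjusted p = 0.0656). The call was lost without any single iLC or Leydig array (2.03 to 2.75, highest adjusted p = 0.097) and with an added constant of 1.

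Lama5, the alpha chain of most adult basement membranes, read 8789 (MEF), 5551 and 6998 (iLC) and 2004 and 887 (Leydig). Leydig cells were lowest, against the direction of Lama1 and Lama2. It was higher in iLC than in Leydig cells, at 2.21 ± 0.45 (SE, adjusted p = 0.03), and lower in Leydig cells than in MEF, at -2.70 ± 0.56 (adjusted p = 0.0397). Both calls were lost without either iLC array, without Leydig replicate 2 (1.63 to 2.79 and -3.29 to -2.12 over the arrays left out, highest adjusted p = 0.13 and 0.112), with an added constant of 1 and with aligned low ends. Lamc1, the gamma chain of most laminins, read 62587 (MEF), 24949 and 35066 (iLC) and 70909 and 71022 (Leydig). The iLC readings were the lowest, and the difference of -1.26 ± 0.33 from Leydig cells did not pass (adjusted p = 0.0617), though it did under 4 alternatives. Lamb2, the beta chain of synaptic and kidney laminins, read 63341 (MEF), 58113 and 51034 (iLC) and 136764 and 103926 (Leydig), highest in Leydig cells (-1.13 between iLC and Leydig cells, adjusted p = 0.0784). Lamb1, a widely used beta chain, read 24999.7 to 36065 and Lama4, the alpha chain of vessels and mesenchyme, 6453 to 11219.9. The epidermal chain Lama3 read 402.7 (MEF), 1269 and 1388 (iLC) and 848.3 and 551.5 (Leydig), lowest in MEF (1.68 ± 0.42 between iLC and MEF, adjusted p = 0.148), and its partner Lamb3 540.7 to 961.8.

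Sdc1 was the 1 syndecan of 4 with a call. Sdc1, the syndecan of epithelia and plasma cells, read 5160.4 (MEF), 21929.6 and 16148 (iLC) and 1159 and 2059.8 (Leydig). Both iLC readings were above MEF and both Leydig readings below it. It was higher in iLC than in Leydig cells, at 3.59 ± 0.40 (SE, adjusted p = 0.0038), and this call held under every alternative run. The differences of 1.86 ± 0.49 between iLC and MEF (adjusted p = 0.158) and -1.73 ± 0.49 between Leydig cells and MEF (adjusted p = 0.101) did not pass. Sdc3, best known from nerve and muscle, read 55429 (MEF), 34334 and 52547 (iLC) and 20200.5 and 9205 (Leydig), lowest in Leydig cells (1.64 between iLC and Leydig cells, adjusted p = 0.0803). Sdc2, a mesenchymal syndecan, read 35292 (MEF), 35459.6 and 24132 (iLC) and 15879 and 10437 (Leydig), also lowest in Leydig cells (1.18, adjusted p = 0.105). Sdc4, the syndecan of focal adhesions, read 105663 (MEF), 53656 and 65390.4 (iLC) and 47453 and 65404 (Leydig), where iLC and Leydig readings overlapped.

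Integrin ligands other than laminins included wide gaps between Leydig cells and the other arrays. Of 20 measured, 7 were higher in iLC than in Leydig cells and 0 lower, 7 were lower and 1 higher in Leydig cells than in MEF, and 0 were called by limma between iLC and MEF (4 at an unadjusted p under 0.05). In the same order, 11.4%, 7.3% and 0.561% of all genes were called. Between iLC and MEF, 15.7% of all genes had an unadjusted p under 0.05. The ligand medians in these comparisons were 0.29, -0.71 and -0.25. Tnc, the gene of tenascin-C, read 387761 (MEF), 379573 and 308874 (iLC) and 758 and 1376 (Leydig) (8.37 between iLC and Leydig cells, adjusted p = 0.000874, and -8.55 between Leydig cells and MEF, adjusted p = 0.00132). Leydig cells, which had the high Itga9 readings, had the low Tnc readings. The fibronectin gene Fn1 read 218059 (MEF), 169821 and 104543 (iLC) and 1039 and 672.6 (Leydig) (7.29 between iLC and Leydig cells). Postn, a matricellular ligand of alpha V integrins, differed by 6.27 and -8.93, and Thbs1, a thrombospondin gene, by 6.22 and -7.44. The calls of these 4 genes held under every alternative run. Vcam1, a ligand of the Itga4 and Itga9 receptors chosen after its values were seen, was the 1 ligand higher in Leydig cells than in MEF. Vcam1 read 41106 (MEF), 112682 and 179123 (iLC) and 312235 and 422875 (Leydig) (3.14 between Leydig cells and MEF, adjusted p = 0.0142). That call was lost without either Leydig array (2.92 to 3.36, highest adjusted p = 0.0924).

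**Figure D4:**
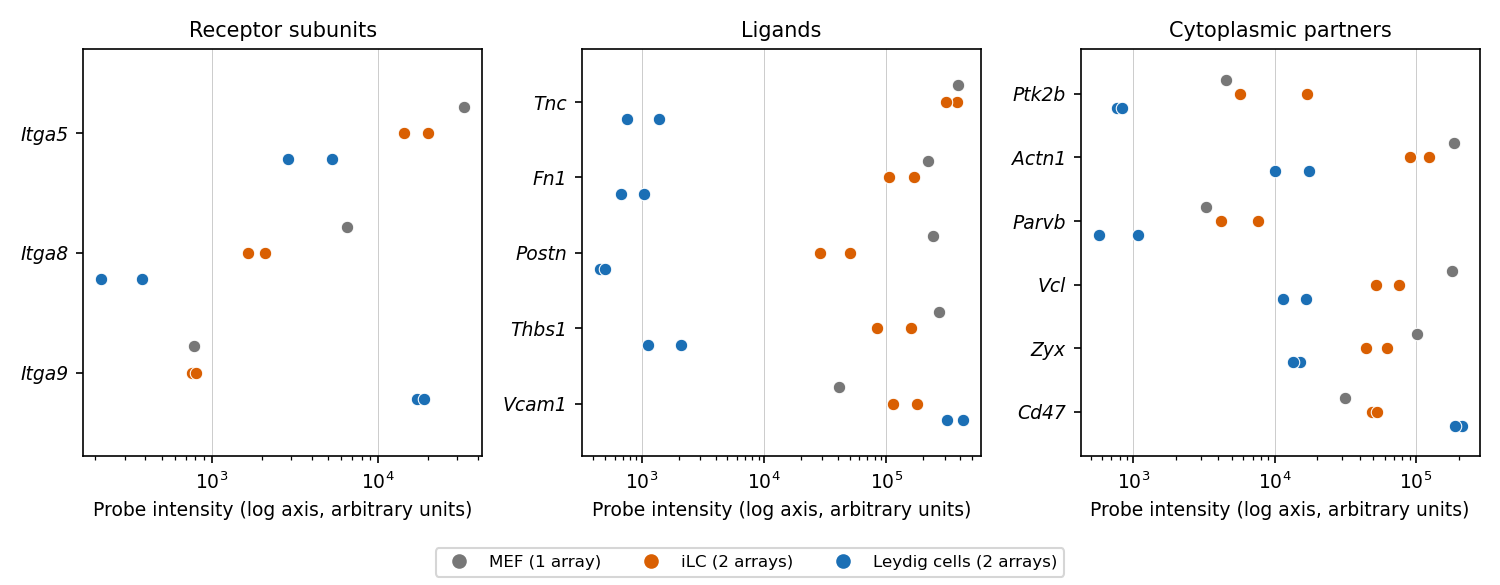
Probe intensity (log axis, arbitrary units) of 3 receptor subunits, 5 ligands and 6 cytoplasmic or membrane partners of integrins, 1 point per array. Leydig cells were lowest for Itga5, Itga8, Tnc, Fn1, Postn and Thbs1 and highest for Itga9, Vcam1 and Cd47.

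Proteins that tie integrins to actin or signal from them split likewise. Of 30 measured, 7 stood higher in iLC than in Leydig cells and 1 stood lower, 1 was higher and 6 lower in Leydig cells than in MEF, and 0 were called by limma between iLC and MEF (11 at an unadjusted p under 0.05). Over all genes, 11.4%, 7.3% and 0.561% were called in these comparisons, and 15.7% had an unadjusted p under 0.05 in the last. The linker medians were 0.18, -1.18 and -0.22. Actn1, an actin crosslinker of focal adhesions, read 186276 (MEF), 122611 and 90764 (iLC) and 9986 and 17546 (Leydig) (2.99 between iLC and Leydig cells, adjusted p = 0.00685, and -3.81 between Leydig cells and MEF, adjusted p = 0.00962). Vcl, the vinculin gene, differed by 2.17 and -3.70. Ptk2b, a kinase related to focal adhesion kinase (3.60), and Parvb, a parvin gene (2.82), were higher in iLC than in Leydig cells. Zyx, the zyxin gene, was lower (-2.83) and Cd47, a membrane partner of integrins, higher (2.68) in Leydig cells than in MEF. Leaving out either Leydig array ended the iLC to Leydig calls of Vcl, Ptk2b and Parvb (highest adjusted p = 0.0854, 0.1 and 0.0841), as did either iLC array for Vcl and iLC replicate 2 for Parvb. It also ended the Leydig to MEF calls of Vcl, Zyx and Cd47 (highest adjusted p = 0.0578, 0.0868 and 0.0713), and leaving out Leydig replicate 2 that of Actn1 (0.052).

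Other basement membrane genes went both ways. Of 23 measured, 4 stood higher in iLC than in Leydig cells and 1 stood lower, 2 were higher and 1 lower in Leydig cells than in MEF, and 0 were called by limma between iLC and MEF (4 at an unadjusted p under 0.05). Called shares of all genes were 11.4% between iLC and Leydig cells, 7.3% between Leydig cells and MEF and 0.561% between iLC and MEF. In the last comparison 15.7% of all genes had an unadjusted p under 0.05. The basement membrane medians were -0.06, -0.02 and -0.02. Col15a1, a collagen beneath basement membranes, read 2041 (MEF), 2999 and 3079 (iLC) and 33816 and 24454 (Leydig) (-3.24 between iLC and Leydig cells, adjusted p = 0.00278, and 3.81 between Leydig cells and MEF, adjusted p = 0.00571). It was high in Leydig cells, as were Itga9 and Lamc3. Fbln2, a fibulin gene, differed by 6.76 and -6.80. Frem1, a gene of the epithelial basement membrane (3.86), and Ntn4, a netrin that binds laminin (2.69), were higher in iLC than in Leydig cells, and Col4a6, a type IV collagen chain, was higher in Leydig cells than in MEF (2.41). Leaving out Leydig replicate 2 ended the call of Frem1 (adjusted p = 0.0505) and the Leydig to MEF call of Col15a1 (adjusted p = 0.0513). Either Leydig array, and for Ntn4 also iLC replicate 2, ended those of Ntn4 and Col4a6 (highest adjusted p = 0.116 and 0.0869).

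Genes of heparan sulfate synthesis and of syndecan partners were read beside the syndecans. Of 30 measured, 4 were higher in iLC than in Leydig cells and 0 lower, 1 was higher and 1 lower in Leydig cells than in MEF, and 0 were called by limma between iLC and MEF (3 at an unadjusted p under 0.05). Of all genes, 11.4% were called between iLC and Leydig cells and 7.3% between Leydig cells and MEF. Between iLC and MEF, 0.561% of all genes were called and 15.7% had an unadjusted p under 0.05. The heparan sulfate medians were 0.33, -0.40 and -0.11. Sulf1, an extracellular enzyme that removes sulfate from the chains, read 41277 (MEF), 45356 and 24547 (iLC) and 758 and 792.8 (Leydig) (5.40 between iLC and Leydig cells, adjusted p = 0.00135, and -5.71 between Leydig cells and MEF, adjusted p = 0.00352). Hs6st2, a 6-O-sulfotransferase gene (2.71), Ext1, a chain polymerase gene (1.70), and B4galt7, a gene of the chain's linker (1.50), were higher in iLC than in Leydig cells. Hs3st1, a 3-O-sulfotransferase gene, read 1793 (MEF), 11981 and 11704 (iLC) and 14879 and 31211 (Leydig) (3.58 between Leydig cells and MEF, adjusted p = 0.0141), and its iLC to MEF difference of 2.71 did not pass (adjusted p = 0.0897). Any single iLC or Leydig array ended the calls of Ext1 and B4galt7 (highest adjusted p = 0.149 and 0.136), and either iLC array or Leydig replicate 2 that of Hs6st2 (0.107). Leydig replicate 2 ended the Leydig to MEF calls of Sulf1 and Hs3st1 (adjusted p = 0.0513 and 0.0645).

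Markers of other cells were read beside the members, and the lists differed. Over all genes, 11.4% were called between iLC and Leydig cells and 7.3% between Leydig cells and MEF. The 7 smooth muscle markers summed to 649428 (MEF), 559990 and 513007 (iLC) and 55958 and 59378 (Leydig), low where Itga1, Itga5, Itga7, Itga8 and Itga11 were low. Of these 7, 5 were higher in iLC than in Leydig cells and 5 lower in Leydig cells than in MEF, among them Myh11 (3.32 and -4.84). The 10 fibroblast markers summed to 876185 (MEF), 664164 and 604489 (iLC) and 654507 and 377825 (Leydig). Of these 10, 3 were called in each comparison with Leydig cells. Thy1 (5.32 between iLC and Leydig cells and -6.85 between Leydig cells and MEF) and S100a4 (3.46 and -4.11) were low in Leydig cells, and Pdgfra (-2.41 and 3.02) was high. Leaving out either Leydig array ended both Pdgfra calls (highest adjusted p = 0.0945 and 0.0748), as did either iLC array the first, and Leydig replicate 2 ended the second of S100a4 (0.0551). The 10 endothelial markers summed to 18858 to 32945, with Cdh5 at 770.6 (MEF), 1216 and 1146 (iLC) and 10224 and 6399.7 (Leydig), high where Itga9, Lamc3 and Col15a1 were high, and Pecam1 at 1027 to 1546 on all arrays. Cdh5 was called in both comparisons with Leydig cells (-2.76 and 3.37), the second lost without Leydig replicate 2 (adjusted p = 0.052). The other endothelial calls went the other way. Esam was higher in iLC than in Leydig cells (1.53), a call lost without any single iLC or Leydig array (highest adjusted p = 0.135), and Emcn lower in Leydig cells than in MEF (-2.33), lost without either Leydig array (highest adjusted p = 0.0864). The part of these cells in the members' readings was not tested.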

How the data were processed

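Each of the 5 mouse RNA samples was hybridised, as amplified RNA carrying Cy5, to an array of its own, per the labels' protocols. The deposited values are linear probe intensities made by the authors; how they were scanned and normalized was not given in the sources used here, and no detection calls were used. Sample titles gave the groups. The platform annotation named 21876 of 26423 probes with 1 symbol, 0 with several and 4547 with none; a gene with several probes (2424 genes, 5 of them members) was taken at the probe with the highest mean log2 value.

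Values below 0 (0 to 435 per array) were set to 0, 16 was added and log2 taken. The added constant shrinks differences of dim genes, and unequal low ends of the arrays (smallest values -47.3 to 48) can create them. limma 3.58.1 in R 4.3.3 (lmFit, eBayes) took a mean for each group over the 5 arrays, with 2 residual and 4.21 prior degrees of freedom, so that the MEF array borrowed its spread from the iLC and Leydig pairs. Tests were two-sided, adjusted by Benjamini-Hochberg over 19084 genes. Between paired arrays the members' root mean square SD was 0.487 (iLC) and 0.694 (Leydig) on the log2 scale. The fit was also run on simulated data, and no result here rests on that run.

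Members, gene lists and rules were chosen with earlier results of these data known. Called members have their value on every array, other members their values or range, and from each other pathway list up to 4 called genes per comparison are named, by size of difference. Alternatives were other added constants, scalings, low ends, a filter on dim genes, the handling of probes, trend and robust moderation, 4 arrays alone, a replicate block, and each iLC or Leydig array left out. Replicate numbers were not taken as pairs, since no label ties them. Promoter windows and coordinates came from RefSeq (GRCm38.p6). Figures used matplotlib 3.10.9.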

Additional observations from a re-analysis of the deposited data

How the results depend on the processing

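The number of arrays limits every value here, and without detection calls signal over background was not set. Among the results recomputed, no called difference of a named gene reversed. These followed the chosen probe of a gene or the mean of its probes, so other probes on their own were not counted. The other Itga1 probe had the opposite sign between iLC and Leydig cells (-0.17 against 2.43). Between iLC and MEF, members called lower went from 0 to 1 (Itga4) with median centring and to 1 with quantile normalization. All genes called there, 53 higher and 54 lower, came to 124 and 166 with an added constant of 64, 7 and 2 with an added constant of 1, 156 and 258 with median centring, 163 and 199 with quantile normalization, 6 and 0 with aligned low ends, and 154 and 200 with trend and robust moderation. Between iLC and Leydig cells, the 7 members higher came to 4 with aligned low ends and the 4 lower to 7 with trend and robust moderation. Between Leydig cells and MEF, the 8 members lower came to 5 with an added constant of 1 and to 5 with aligned low ends. The cause was not tested.

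Leaving out an array leaves 1 residual degree of freedom. Between iLC and MEF the calls were then 0 to 0 of all genes, higher and lower. Between iLC and Leydig cells there were 3 to 5 members higher and 2 to 3 lower, and 334 to 556 and 362 to 763 of all genes. Between Leydig cells and MEF there were 1 to 2 members higher and 0 to 7 lower, and 79 to 429 and 74 to 535 of all genes. Of the 11 member calls between iLC and Leydig cells, 4 held in all 15 alternatives (Itga9, Itga11, Lamc3 and Sdc1), and of the 11 between Leydig cells and MEF, 1 held in all 13 (Itga9).

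With the replicate number as a block in a fit of the iLC and Leydig arrays, 10 members were higher and 6 lower, and 1482 and 1958 of all genes. The labels do not say that the numbers pair arrays, and deviations of iLC replicate 1 and Leydig replicate 1 from their group means correlated at 0.06 over genes.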
